A study of Mus musculus with 15 samples.

Results

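The cytosolic ribosomal protein genes were taken as every gene whose symbol begins with Rpl or Rps followed by a digit, leaving out the Rps6k kinases and every probeset annotated with several symbols. The rule gave 50 of 16277 named genes, measured by 261 probesets, from 1 to 14 per gene with a median of 4. Of these, 28 code for large-subunit (60S) proteins or their paralogues and 20 for small-subunit (40S) proteins or their paralogues. The other two, Rps19bp1 and Rpl7l1, code for proteins that are not counted as subunit members and were left out of subunit summaries. Choosing by symbol used no measured value.

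A ribosome joins a small subunit, which decodes the mRNA, to a large subunit, which forms the peptide bond. Each subunit holds a single copy of most of its proteins, so cells make the proteins in matched amounts, largely by control of translation and by degrading what is not assembled. Their genes are among the most highly transcribed in blood-forming tissue, where loss of a single copy of some members, Rps19 and Rps14 among them, impairs red cell production.

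The data came from 15 arrays, each of RNA from a spleen of a Bl/6 Taconic mouse with acute promyelocytic leukaemia (APL), a disease in which promyelocytes accumulate. All 15 carry the same labels, and no healthy spleen or other tissue was analysed here, so no level could be set against a control. The labels name no transgene, age or treatment and do not state that each spleen was a different mouse. Thus every p-value below measures only the spread between these arrays, which may be technical. Values are log2 intensities of a gene's median probeset. All 5 promyelocyte markers were detected, with Mpo at 12.91 ± 0.27 (SD, n = 15), beside all 8 markers of later neutrophil stages, 4 of 6 measured B cell, all 5 measured T cell, 3 of 5 measured erythroid and 6 of 7 macrophage markers. A spleen sample mixes these cells, and fewer cells of a type and less RNA per cell cannot be told apart. Between any pair of arrays, r across detected genes lay from 0.846 to 0.970. The tumours labelled tumor_9509 and tumor_9514 stood apart: they correlated with each other at 0.949 and with no other array above 0.900, and their median detected gene lay 0.23 and 0.18 log2 units under the 15-tumour mean. Results that rest on them are given with and without them.

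Of the 50 genes, 49 were detected, meaning a mean above 6.415, the 40th percentile of gene means. The exception was Rpl39l, the paralogue of Rpl39 known from the testis, at 3.42 ± 0.55. The other genes had means between 6.50 and 13.31, with a median of 11.57, against a median of 7.60 over the 9766 detected genes. Rpl41, which codes for the smallest ribosomal protein, was listed at 13.31 ± 0.09 and Rpl32 at 13.16 ± 0.09. At the other end stood Rpl3l, the muscle paralogue of Rpl3, at 6.50 ± 0.24 over 9 probesets, just above the detection limit. An array level depends on how well each probe binds, so the order of these means is not an order of mRNA abundance. Many processed copies of these genes also lie in the mouse genome, and probes may read a copy together with its source gene.

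**Figure D1:**
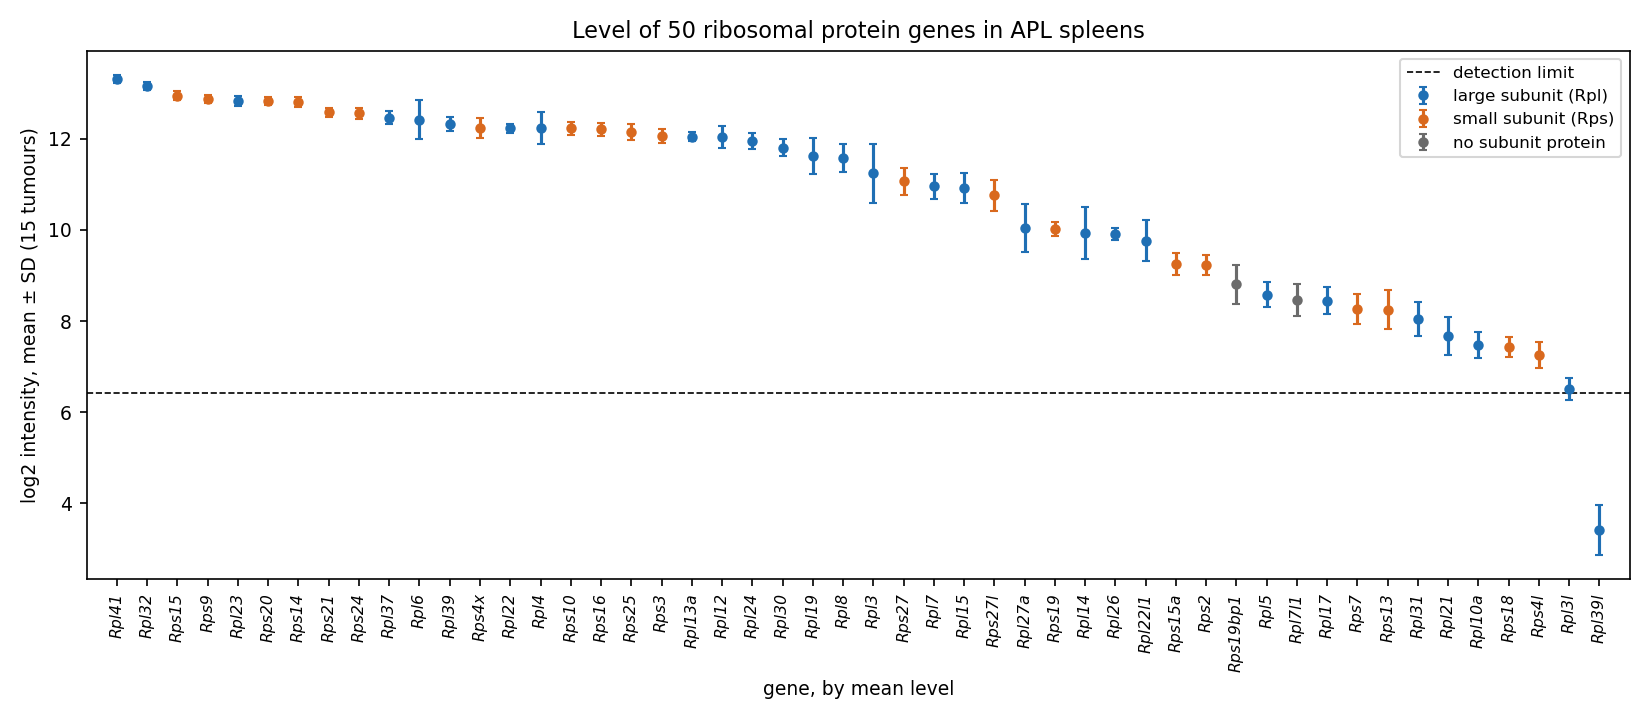
Mean log2 intensity of each of the 50 genes (points) with the SD over 15 tumours (bars), ordered by mean; blue marks the large subunit, orange the small subunit and grey the genes of neither. All but Rpl39l, at 3.42, lie above the dashed detection limit of 6.415.

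Ribosomal protein mRNAs are known for a 5' terminal oligopyrimidine tract, a C followed by C and T (U in the RNA) letters, through which growth signalling sets their translation. The start sites of 40 of the 50 genes were matched by symbol to RefSeq promoters of GRCm38.p6, a newer build than that of the arrays. Runs of at least 8 C or T letters on the coding strand were counted from a C within 5 bases of the annotated start. Such a run was found in 11 of the 40 genes (27.5%), against 5.157% of 17492 protein-coding genes. The base before that C was not checked. Further C or T letters can thus precede the counted run, as in Rpl14, Rpl22l1, Rps24 and Rps9. In Rpl14 they reach more than 5 bases before the start. The 30 bases around the start are shown for genes on which the results below turn, 15 before and 15 from the start on, 5' to 3' on the coding strand, with the tract in capitals.
Rpl14, chr9:120571502-120571531, plus strand: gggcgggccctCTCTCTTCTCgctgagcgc
Rpl27a, chr7:109519180-109519209, plus strand: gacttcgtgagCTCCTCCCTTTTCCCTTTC
Rpl22l1, chr3:28805493-28805522, plus strand: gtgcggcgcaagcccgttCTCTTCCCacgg
Rps27, chr3:90213634-90213663, minus strand: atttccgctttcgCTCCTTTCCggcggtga
Rpl15, chr14:18270972-18271001, minus strand: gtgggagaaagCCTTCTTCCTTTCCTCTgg
Rps24, chr14:24490663-24490692, plus strand: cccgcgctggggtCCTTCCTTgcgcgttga
Rps9, chr7:3704026-3704055, plus strand: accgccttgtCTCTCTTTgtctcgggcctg
In Rpl4, Rpl6 and Rpl12 no such run was found near the annotated start, so the same window is in lower case.
Rpl4, chr9:64173372-64173401, plus strand: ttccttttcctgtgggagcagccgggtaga
Rpl6, chr5:121204486-121204515, plus strand: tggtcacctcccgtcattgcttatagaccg
Rpl12, chr2:32961697-32961726, plus strand: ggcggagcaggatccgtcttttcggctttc
The window of Rpl4 opens with a run of C and T letters that was not counted, since its C letters lie more than 5 bases before the start. The annotated start can lie some bases from the one a cell uses, and the match is of letters only.

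CCGGAAG, the core letters that ETS-family factors are known to bind, was found on either strand in the 300-base promoters of 17 of the 40 genes (42.5%), against 12.95% of all genes. The E-box CACGTG, known to be bound by Myc with Max, was found in 5 (12.5%, against 8.913%). The GC box GGGCGG was found in 24 (60%, against 49.23%) and TATAAA in 4 (10%, against 14.8%). Both strands were searched for each motif, CACGTG is its own reverse complement, and a promoter with several motifs was counted for each. The windows below show CCGGAAG in capitals in Rpl6, which lay apart in tumor_9509 and tumor_9514, in Rpl41, the member with the highest mean intensity, and in Rpl15 and Rps27l.
Rpl6, chr5:121204502-121204531, plus strand: ttgcttatagaCCGGAAGccgctgccttag
Rpl41, chr10:128549206-128549235, minus strand: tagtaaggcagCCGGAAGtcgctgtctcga
Rpl15, chr14:18271125-18271154, minus strand: tgggagagcatCCGGAAGcggcgggctgtc
Rps27l, chr9:66946084-66946113, plus strand: ccgcctctatcCCGGAAGttgctgaggggc
The 11 detected genes with the start tract had a median SD of 0.240 over the tumours, and the 28 matched genes without it had 0.221. Detected genes with CCGGAAG (16) had a median SD of 0.220 and those without it (23) 0.239.

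How far each gene varied across tumours followed its intensity. The 21 members with a mean above 12 made up 24.1% of the 87 genes that bright, and their median SD was 0.125, against 0.167 over all 87. The 28 dimmer members had a median SD of 0.305, against 0.295 over all dimmer genes. The smallest SDs belonged to Rpl32 and to Rpl41, Rps9 (12.87 ± 0.09) and Rps20 (12.83 ± 0.10). Over all 15 tumours Rps9 ran from 12.70 through a median of 12.89 to 13.04 and Rps20 from 12.64 through 12.84 to 13.02. These genes differed between the highest and lowest tumour by 0.34 and 0.37 log2 units.

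Among the 49 detected members, the 6 with the largest SD were Rpl3, Rpl14, Rpl27a, Rpl22l1, Rps13 and Rps19bp1. Rpl3, which lies beside the peptidyl transferase centre, had its lowest value at 9.78 in tumor_9509, its median at 11.44 and its highest value at 11.81 in tumor_9520 (SD 0.65). Rpl14, another large-subunit gene, ran from 8.57 in tumor_9514 through 10.11 to 10.71 in tumor_9508 (SD 0.58). Both spreads came mainly from tumor_9509 and tumor_9514: over the other 13 tumours the SD was 0.30 for Rpl3 and 0.27 for Rpl14. Rpl27a, also of the large subunit, ran from 9.10 in tumor_9509 through 9.95 to 11.33 in tumor_9508, and kept an SD of 0.49 without the 2 tumours (0.53 with them). Rpl22l1, the paralogue of Rpl22, ran from 8.79 in tumor_9492 through 9.74 to 10.83 in tumor_9508 (SD 0.45, and 0.46 without the 2 tumours). For these last genes the single tumour tumor_9508 set the upper end. Rps13, read by 1 probeset, ran from 7.65 in tumor_9529 through 8.23 to 9.33 in tumor_9508 (SD 0.43). Rps19bp1, whose protein binds Rps19, ran from 7.76 in tumor_9509 through 9.01 to 9.20 in tumor_29 (SD 0.43, and 0.18 without the 2 tumours).

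**Figure D2:**
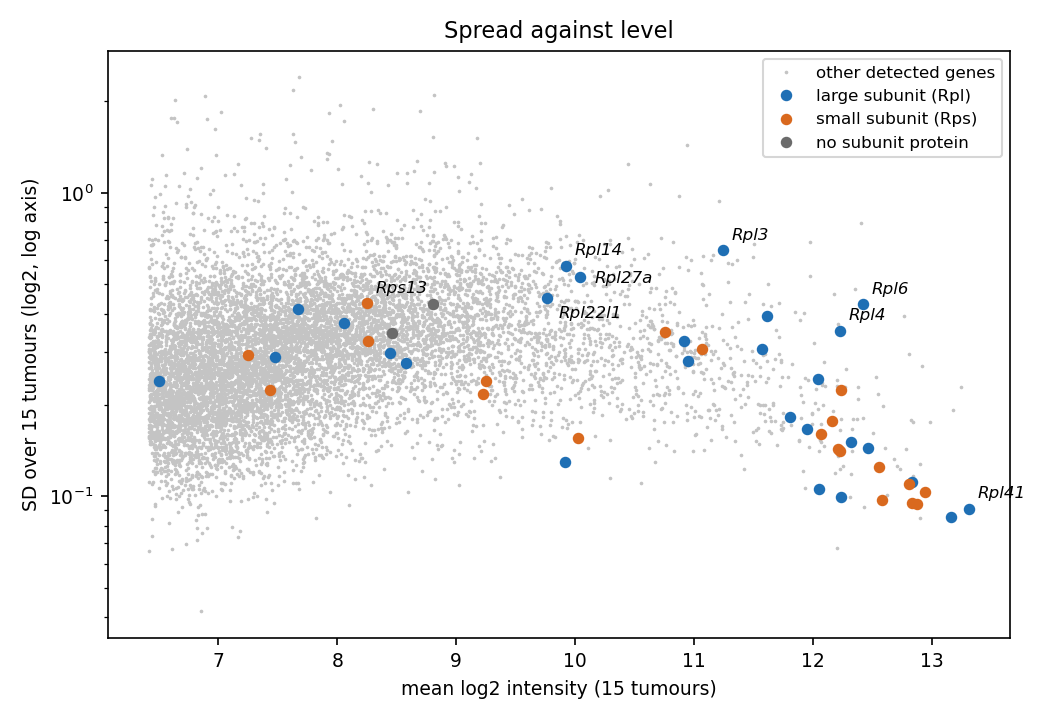
SD over 15 tumours (log axis) against mean log2 intensity for the 9766 detected genes (grey dots), with the 49 ribosomal protein genes coloured by subunit. The brightest members sit at SDs near 0.1, while Rpl3, Rpl14, Rpl27a, Rpl6 and Rpl4 lie above most genes of like intensity.

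The 49 detected genes moved together to a limited degree. Among their 1176 pairs the median Pearson r across the 15 tumours was 0.205 and 68.5% were positive, against 0.0775 and 58.2% over all pairs of detected genes, which share the same arrays. Without tumor_9509 and tumor_9514 the median was 0.282, against 0.0204. It was 0.104 against 0.0838 without tumor_9508, so the gap to other genes rested largely on that tumour. Under quantile normalization it was 0.189 against 0.000669. The first principal component of the standardised members carried 31.4% of their variance.

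Each gene was also set against the median of the other members. This r was positive for 40 of 49 genes, with a median of 0.407. The highest values belonged to large-subunit genes: Rpl4 at 0.883, Rpl6 at 0.864, Rpl12 at 0.859, Rpl14 at 0.858 and Rpl24 at 0.820, with Rps3 of the small subunit next. Without the 2 tumours those 5 were 0.607, 0.510, 0.611, 0.590 and 0.439, and the value for Rpl3 went from 0.614 to -0.0743. The same omission raised Rpl22l1 from 0.679 to 0.823 and Rps20 from 0.240 to 0.811.

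The lowest correlations were those of Rpl5 (-0.448), Rps27 (-0.327), Rps4l (-0.287), Rpl22 (-0.245) and Rps18 (-0.173). Rpl5 carries the 5S rRNA into the large subunit and, with its partner, is known to restrain Mdm2 when assembly fails. Its level ran from 8.19 in tumor_9495 through 8.57 to 9.09 in tumor_9504, and its correlation stayed negative without the 2 tumours (-0.381). Rpl5 was read by 3 probesets whose odd-ranked and even-ranked sets correlated at 0.301. In tumor_9508 the brightest of them (mean 11.28) deviated by 0.24, while the others (8.57 and 8.14) deviated by -0.32 each. The negative correlation is that of the median probeset, and the brightest was not set against the members on its own. For Rps27, Rpl22 and Rps4l the sign turned without tumor_9509 and tumor_9514, to 0.712, 0.370 and 0.0940, and for Rps18 it did not (-0.0829). Rps18 (7.43 ± 0.22) and Rps4l (7.25 ± 0.29) were dim, and the odd-ranked and even-ranked sets of their probesets correlated at -0.01 and 0.10, so their probes shared little of a pattern. Over the 43 members with more than 1 probeset that could be split, such sets correlated at a median of 0.771, and 30 members exceeded 0.5.

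The closest pairs were Rpl3 with Rpl6 (r = 0.959), Rpl4 with Rpl6 (0.944) and Rpl14 with Rpl4 (0.931), at 0.769, 0.620 and 0.605 without the 2 tumours. By contrast, Rpl14 with Rpl6 went from 0.879 to 0.125. Rpl39 with Rps27, a large-subunit and a small-subunit gene, correlated at 0.898 and at 0.942 without them. Rpl15 with Rps25 stood at 0.856 and 0.881. Among opposed pairs, Rpl17 with Rpl31 had -0.721 and -0.748, and Rpl10a with Rpl41 had -0.757 and -0.682. Rpl17 was read by 1 probeset. The odd-ranked and even-ranked probesets correlated at -0.04 in Rpl10a, 0.30 in Rpl31 and 0.41 in Rpl41, which limits what these oppositions show. These pairs were picked as the extremes of 1176, so they describe these arrays.

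The tumour with the highest ribosomal protein values was tumor_9508. There 45 of 49 genes lay above their own 15-tumour mean, against 49.7% of all detected genes, with a median deviation of 0.21 log2 units, while the median of all detected genes deviated by -0.0014. In 17 of the 49 genes it held the highest value of all tumours. The share of all detected genes that were highest there was not counted. Rpl27a deviated most, at 1.29, followed by Rps13 and Rpl22l1 at 1.07 each and Rpl14 at 0.79. In Rpl22l1 all 6 probesets had their highest value in this tumour, with deviations from 0.57 to 1.72. All 3 single-symbol probesets of Rpl27a likewise peaked there, from 0.95 to 1.53. The median of its 8 further probesets with several symbols also peaked there, but only at 11.34 against a mean of 11.11. With arrays centred (median deviation 0.22) or quantile normalized (0.18), the count above the mean was 45 as well. Both subunits took part, with 24 of 27 large-subunit and 19 of 20 small-subunit genes above their mean. Of genes with the start tract shown above, 11 of 11 were above it, and of matched genes without it 26 of 28. Mitochondrial ribosomal proteins, coded by separate genes, had a median deviation of 0.46 there. In the same tumour the 8 later-neutrophil markers had their lowest median deviation (-1.70) and Ltf, coding for lactoferrin, its lowest level (7.67). The B cell markers stood at -0.47. The part of these cell types in the ribosomal protein values was tested only through the Ltf level below.

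By median deviation the lowest tumour was tumor_9492. In it 40 of 49 genes lay under their mean, against 38.6% of all detected genes, with a median deviation of -0.13, while all detected genes had a median of 0.07. It held the lowest value of 10 members, among them Rpl22l1 (8.79), Rpl15 (10.35) and Rps27 (10.56). By this count tumor_9509, at a median deviation of -0.12, was lower, with the lowest value of 11 members. The share of all detected genes that were lowest in either tumour was not counted. With arrays centred or quantile normalized, 44 of 49 genes were below their mean, at a median of -0.18 under each. The median deviation of small-subunit genes was -0.17 and that of large-subunit genes -0.11. Rpl7l1, which acts in ribosome assembly, was an exception, with its highest value of the 15 tumours (9.03). In tumor_9492 the B cell markers had their lowest median deviation (-0.72), the T cell markers -0.52, the macrophage markers -0.67 and the erythroid markers their highest (0.54). The part of these markers in the ribosomal protein values was not tested.

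**Figure D3:**
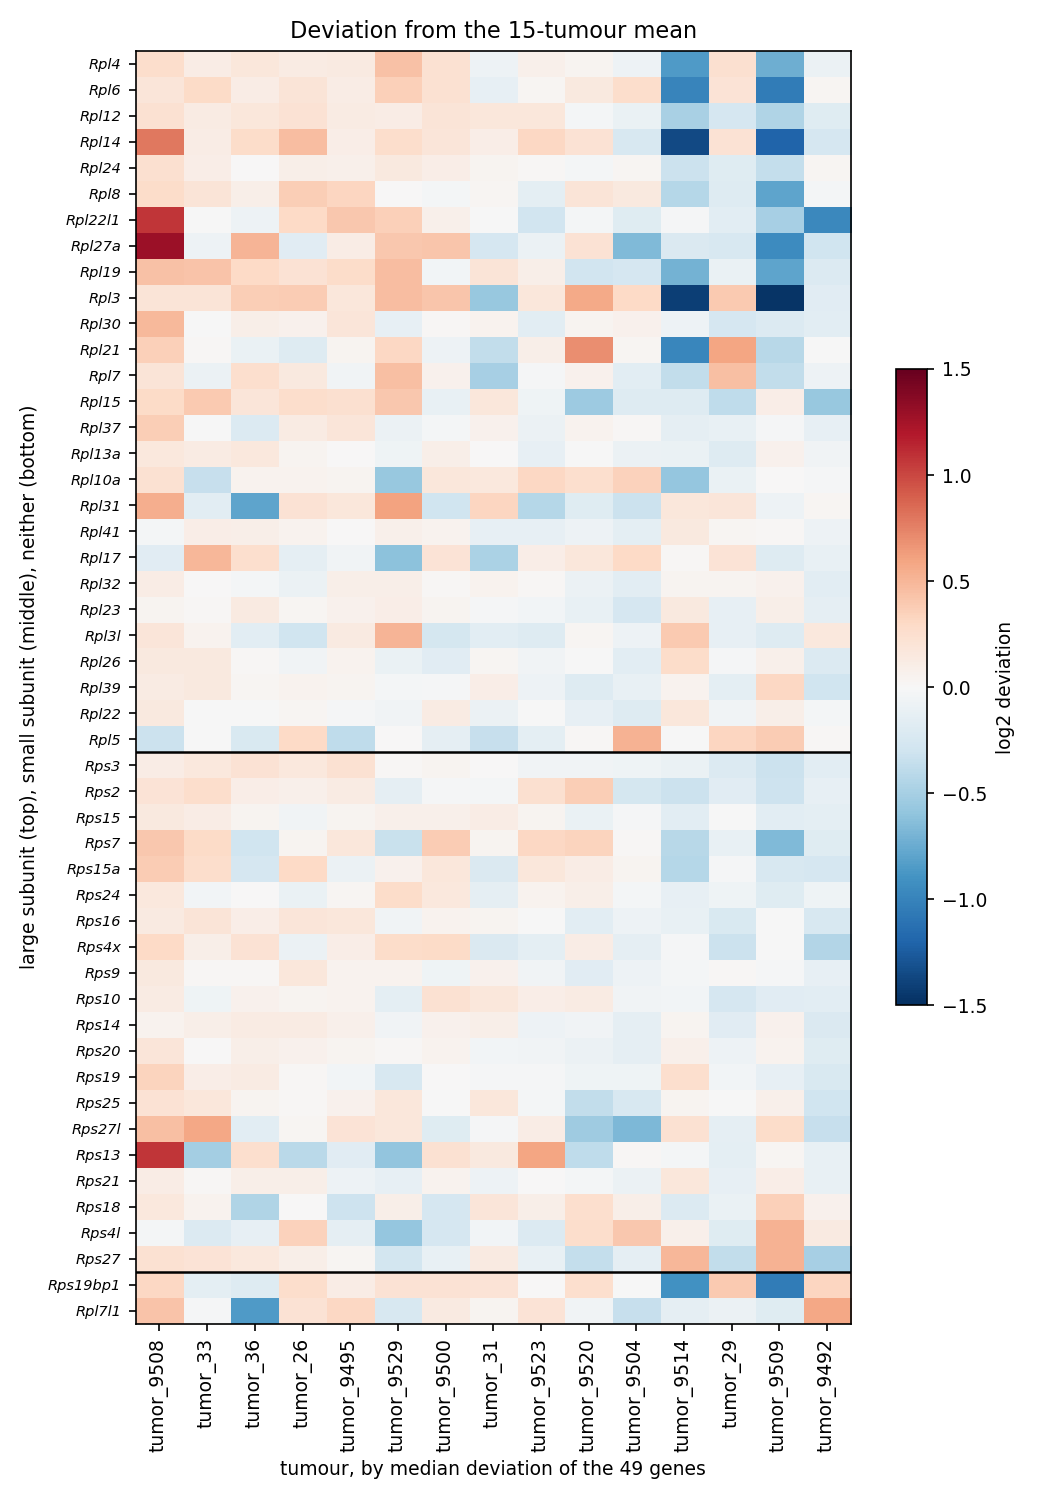
Deviation of the 49 detected genes from their own 15-tumour mean (colour, log2 units), with tumours in columns from the highest to the lowest median and genes in rows grouped by subunit. The column of tumor_9508 is red in 45 genes, and the columns of tumor_9509 and tumor_9514 are dark blue in Rpl3, Rpl14 and Rpl6 and red in Rps27.

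In tumor_9509 and tumor_9514 the genes parted from each other. Both tumours lay under all other 13 in 13 genes (Rpl3, Rpl4, Rpl6, Rpl8, Rpl12, Rpl14, Rpl19, Rpl21, Rpl24, Rps2, Rps7, Rps15 and Rps19bp1) and above all other 13 in 1, Rps27. Among all detected genes 24.1% lay under and 2.6% above in this way, so the shares of the members (26.5% and 2.04%) were near the background. The counts depended on the scaling. With arrays centred on their median 6 members lay under (12.2%, against 9.49% of all genes) and 14 above (28.6%, against 17.4%). After quantile normalization 10 lay under (20.4%, against 12.9%) and 4 above (8.16%, against 11%). In the values as deposited, Rpl6 was at 11.38 and 11.44 there, against 12.29 to 12.78 with a median of 12.60 in the others. Rpl3 was at 9.78 and 9.83 (others 10.67 to 11.81, median 11.54). Rpl14 was at 8.72 and 8.57 (others 9.67 to 10.71, median 10.15). That these ranges do not overlap follows from how the genes were picked. The gaps in Rpl6, Rpl3 and Rpl14 were wider than the SD among the other 13 tumours. Other genes so picked lay closer. In Rps15 the higher of the 2 tumours was at 12.787, against a lowest other value of 12.792, and in Rpl21 at 7.263, against 7.302. Rpl4 was at 11.50 and 11.38 (others 12.15 to 12.67), with 13 of its 14 probesets under their mean in both tumours. Rps27, which codes for a zinc-finger protein of the small subunit, was at 11.58 and 11.56, against 10.56 to 11.29 with a median of 10.96. Both of its probesets were above their mean in both.

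Over the whole family, in the values as deposited, the share of genes under their mean in these 2 tumours was near that of all genes. Of the 49 members 26 (53.1%) were under their mean in both, against 55.8% of all detected genes, and 13 were above it in both. The median deviation was -0.12 in tumor_9509 and -0.10 in tumor_9514, but 0.19 and 0.18 with arrays centred on their median, and -0.01 and -0.03 after quantile normalization, so the direction depended on the scaling. In the values as deposited, deviations under -0.5 in both tumours occurred in 5 large-subunit genes, 0 small-subunit genes and Rps19bp1. These were 12.2% of the members, against 16.8% of all detected genes. With arrays centred on their median the shares were 8.16% and 5.97%, and after quantile normalization 12.2% and 7.8%. Which share was larger thus depended on the scaling. The named translation factors, a list of 22 detected genes such as Eef1a1 and Eif3e, had median deviations of -0.899 and -1.003.

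Large-subunit and small-subunit genes were compared by their median deviation in each tumour, since intensities of different probes cannot be compared as amounts. The per-tumour medians of the 27 large-subunit and 20 small-subunit genes correlated at Pearson r = 0.746 and Spearman rho = 0.689 across 15 tumours. Without tumor_9509 and tumor_9514 the Pearson r was 0.812, and without tumor_9508 it was 0.633. The large-minus-small difference had an SD of 0.08 log2 units over the tumours. It was lowest in tumor_9509 (-0.19) and tumor_9514 (-0.11) and highest in tumor_9529 (0.13), with all others between -0.04 and 0.07. Within the large subunit the median SD of a gene was 0.28, against 0.17 within the small subunit, and an SD above 0.3 was found in 11 of 27 and 4 of 20 genes. Without the 2 tumours these medians were 0.18 and 0.17. The median level was 11.57 in large-subunit and 12.11 in small-subunit genes, and spread followed intensity, as described above. Pairs within the small subunit had a median r of 0.301, pairs within the large subunit 0.190 and mixed pairs 0.218.

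**Figure D4:**
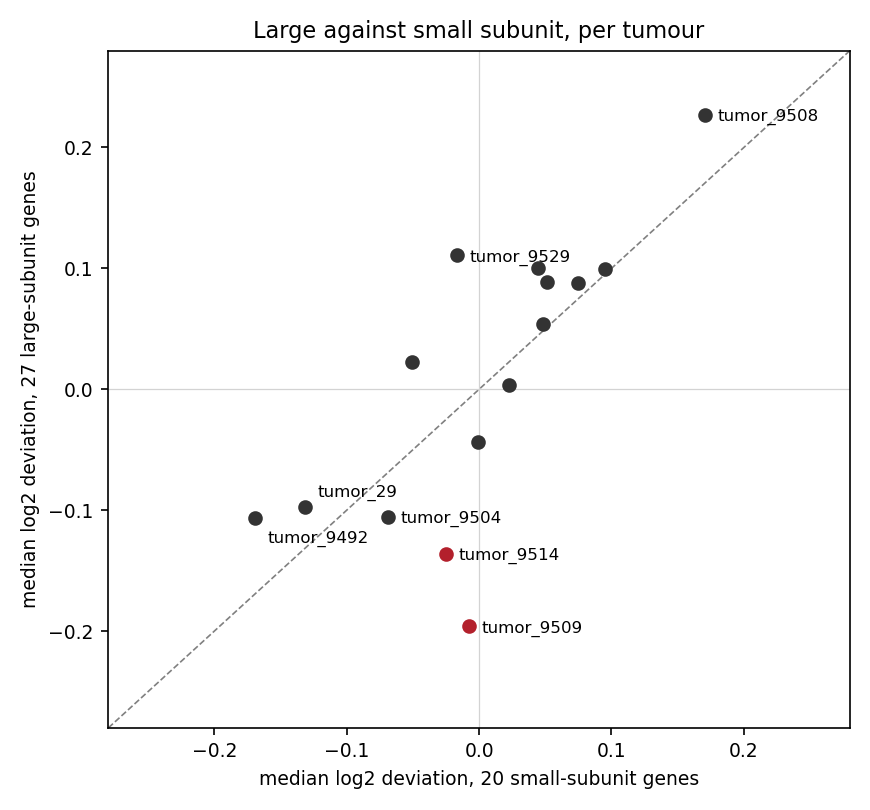
Median log2 deviation of the 27 large-subunit genes (vertical) against that of the 20 small-subunit genes (horizontal), 1 point per tumour, with the line of equal deviation dashed. The red points, tumor_9509 and tumor_9514, lie below the line by 0.19 and 0.11, and tumor_9508 is the highest on both axes.

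Between paralogues the correlation ranged from -0.343 to 0.628. Rps27l, a paralogue of Rps27 known as a p53 target, was at 10.76 ± 0.35 and correlated with Rps27 at 0.628 (0.611 without the 2 tumours). Rpl22, an RNA-binding large-subunit protein, was at 12.23 ± 0.10 and correlated with Rpl22l1 at 0.279 (0.465). Rpl3 with Rpl3l had -0.130, Rpl39 with Rpl39l -0.0842, Rpl7 with Rpl7l1 -0.113 and Rps4x with Rps4l -0.343. Rpl3l, Rpl39l and Rps4l were dim, which limits what their correlations show. Rps4x, on the X chromosome, was at 12.23 ± 0.22. Rps19 was at 10.02 ± 0.16 and Rps14 at 12.81 ± 0.11.

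Deviations by chromosome were taken from a gene's 15-tumour median, less the median of all detected genes in that tumour. On chromosome 14, 337 detected genes had a median deviation of 0.24 in tumor_9529. Of the 49 detected members 8 had their highest value of the 15 tumours in tumor_9529. The share of all detected genes that were highest there was not counted. Among the 8 were Rpl4 on chromosome 9 and Rpl6 on chromosome 5, whose genes had medians of 0.11 and 0.04 in that tumour. The members on chromosome 14, Rpl15 (deviation 0.31) and Rps24 (0.30), were both among these 8. So were both members on chromosome 1, Rpl31 and Rpl7, where 539 genes had a median of 0.19 in tumor_9529. On chromosome 16, at 0.18 in tumor_9529, Rpl24 was not. The same was not seen on chromosome 16 in tumor_9492, where 295 genes had a median of 0.29 and Rpl24 deviated by -0.04. On chromosome 6 in tumor_9523, 466 genes had a median of 0.23, with Rpl32 at -0.02 and Rps4l at -0.18.

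Association with other genes was tested with limma, as the slope of each gene's log2 value on the log2 level of Myc, of Mki67 or of Ltf, in a fit over all detected genes with Benjamini-Hochberg adjustment at 0.05. Myc codes for a transcription factor with a textbook role in ribosome production. Of the 49 members 8 rose with Myc (16.3%), against 19.1% of the 9765 genes tested, and 1 fell, against 1.5%. In the values as deposited the share rising was near that of all genes, and under the other scalings given below it was higher. At an unadjusted p under 0.05, 15 members rose and 1 fell, against 30% and 4.26% of all genes. The median slope was 0.05 over members and 0.10 over all genes, and both turned negative with arrays centred on their median (-0.11 and -0.05). With arrays so centred, 6 members rose and 14 fell at an unadjusted p under 0.05. The share of all genes at that threshold was not counted there, so these counts are not read as particular to the members. The genes that rose were Rpl3 (0.79 log2 units per log2 unit of Myc, SE 0.13, adjusted p = 0.0014), Rpl14 (0.70, SE 0.12, adjusted p = 0.0015), Rps19bp1 (0.56), Rpl6 (0.52), Rpl21 (0.51), Rpl4 (0.41), Rps7 (0.34) and Rpl8 (0.29). Rps27 fell by 0.31 (SE 0.09, adjusted p = 0.020). All 9 are among the genes in which, in the values as deposited, tumor_9509 and tumor_9514 lay outside the other 13 tumours, and these tumours also had the lowest Myc levels (9.52 and 9.15, against 10.51 to 11.77).

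Without these 2 tumours 0 members passed in either direction with limma (1 rising and 0 falling at an unadjusted p under 0.05, against 1.54% and 1.71% of all genes), and 0 of all genes did. The slopes of Rpl21 (0.60), Rps7 (0.30) and Rps27 (-0.23) then stayed near their values over all tumours, while those of Rpl3 (0.23), Rpl14 (0.18) and Rpl4 (0.02) were smaller. Rps19bp1 stood at 0.29, Rpl6 at -0.0019 and Rpl8 at -0.04. Without tumor_9514 alone 1 member rose and 0 fell, while 40 of all genes rose. Without tumor_9509 alone 6 members rose and 0 fell, while 444 of all genes rose. Without tumor_29 13 members rose and 1 fell, while 2004 of all genes rose. In these fits the count of rising members thus moved in the same direction as that of all genes. Scaling moved the balance of directions. With arrays centred on their median 5 of 49 members rose and 2 fell, while 458 of 9765 genes rose and 519 fell. After quantile normalization 6 members rose and 1 fell, while 592 of all genes rose and 307 fell. Under both scalings the share rising was larger among members than among all genes. In the values as deposited 1862 of all genes rose and 146 fell. In lists of related function, 18 of 22 translation factors rose with Myc, as did 19 of 25 genes of ribosome assembly and rRNA synthesis, 27 of 73 mitochondrial ribosomal proteins, and 2 of 3 ribosomal protein genes outside the symbol rule. The difference between these lists and the members was not tested.

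**Figure D5:**
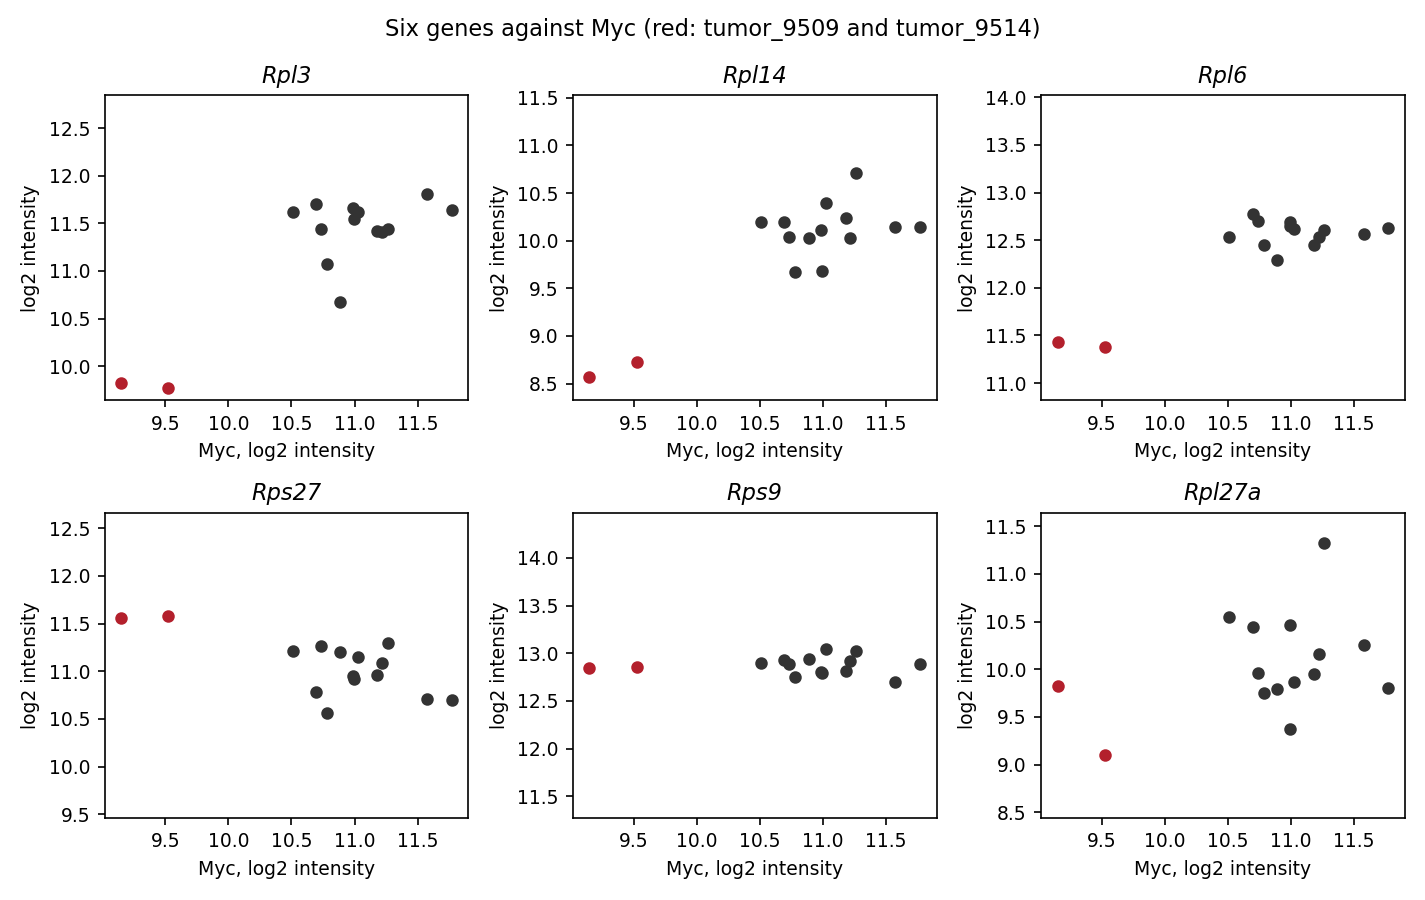
Log2 intensity of 6 genes (vertical axes, equal spans) against the log2 intensity of Myc (horizontal), 1 point per tumour, with tumor_9509 and tumor_9514 in red. In Rpl3, Rpl14 and Rpl6 the red points lie below the other 13, in Rps27 above them, and in Rps9, both at 12.85, within their range.

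Mki67 marks cycling cells. With limma 0 members rose and 0 fell with its level (0.0% of all 9765 genes in each direction), and 0 members had an unadjusted p under 0.05, against 1.37% of all genes rising and 1.2% falling. Ltf marks later neutrophil stages. Its level ran from 7.67 in tumor_9508 to 12.24 in tumor_31. With limma 0 members rose and 0 fell with Ltf, against 0.338% and 0.0205% of all genes, and the lowest adjusted p was 0.492. At an unadjusted p under 0.05, 0 members rose and 4 fell (Rpl30, Rps15a, Rpl22l1 and Rpl8), against 5.37% and 2.92% of all genes. Slopes on Ltf were negative in 42 of 49 members, against 50.8% of all genes, with a median of -0.04 against 0.00 over all genes. The members share the same arrays, so these signs are not independent. In tumor_9508 the lowest Ltf level met the highest median deviation of the members (0.21). In tumor_9504, next lowest in Ltf (8.36), that median was -0.08. The count of signs without tumor_9508 is not given here. Tumours numbered with 2 digits (5) and with 4 digits (10), the only split the labels offer, gave 0 members in either direction with limma (0.0% of 9766 genes), with 0 at an unadjusted p under 0.05 against 1.72% and 0.594% of all genes.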

How the data were processed

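Total RNA from 15 APL spleens was hybridised to Affymetrix Mouse Exon 1.0 ST arrays, which read a gene through several probesets. The authors deposited 1 linear intensity per probeset and array (2.38 to 19380.49, array medians 107.6 to 128.5), made with RMA and build mm9 per the submitters' processing notes, versions not given. No scanner output was used here and background correction was not varied. The number of arrays limits the precision.

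Intensities were log2 transformed. Of 229581 probesets, 208397 had 1 gene symbol, 3965 several and 17219 none, and only the first were used. The 16299 symbols, updated through the GRCm38.p6 RefSeq gene table, gave 16277 genes. Rps4l is listed as Rps4y2 on the platform. A gene's value is the median of its probesets, and a gene was detected above the 40th percentile of gene means. Rpl7a, Rpl38 and Rps3a have only probesets with several symbols and are not members. No 2 arrays were identical (0 pairs).

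Slopes and the numbering contrast were fitted with limma 3.58.1 (lmFit, eBayes) in R 4.3.3 over all detected genes, leaving out the regressor gene, with Benjamini-Hochberg adjustment at 0.05. The fit was tested on simulated data. Correlations are descriptions without p-values. Alternatives were the mean over probesets, centred arrays, quantile normalization, no filter or the 60th percentile, and single or both doubtful tumours left out. Named by rule among detected members were the 6 with the largest SD, the 4 with the smallest, the 5 with the lowest and 5 with the highest correlation with the other members, and in any case the paralogue pairs, members not detected, Rps19, Rpl5, Rps14 and Rps19bp1. Other genes were named after their values were seen. The members and lists were chosen with earlier results of these data known. Python 3.11.15, numpy 2.4.6, pandas 2.3.3 and matplotlib 3.10.9 were used.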

Additional observations from a re-analysis of the deposited data

How the results depend on the processing

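The number of members rising with Myc was 8, and it was 5 with arrays centred on their median, 0 without tumor_9509 and tumor_9514, and 1 to 13 with single tumours left out. With single tumours left out the number rising over all genes ran from 40 to 2081. The number of members falling was 1, and it was 2 with the mean over probesets or with centred arrays, 0 without both tumours, and 0 to 1 with single tumours left out. Slopes on Myc turned sign without both tumours in Rpl6 (-0.0019) and Rpl8 (-0.0442), while that of Rpl21 went from 0.51 to 0.60 and that of Rps7 from 0.34 to 0.30, none of them past the threshold. The counts for Mki67, Ltf and the numbering of tumours were 0 in each setting run. The median pairwise r of the members lay between 0.104 and 0.240 with single tumours left out, lowest without tumor_9508, and the SD of the large-minus-small difference between 0.060 and 0.088. No paired analysis was possible because the labels give 1 group. Intensities near the detection limit, as for Rpl3l and Rps4l, limit what can be read from those genes.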

Other observations

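Ribosomal protein genes that the symbol rule or the single-symbol probesets leave out gave the following values. Rplp0, a protein of the large subunit's stalk, was at 11.32 ± 0.58 (SD, n = 15), with deviations of -1.29 in tumor_9509 and -1.46 in tumor_9514. Its stalk partner Rplp1 was at 12.71 ± 0.13, with deviations of 0.15 and 0.09 in the same tumours. Rpl7a, from 6 probesets that carry several symbols, was at 10.64 ± 0.58 and lowest in tumor_9514 (9.08). Rpl38, from 8 such probesets, was at 12.70 ± 0.09. Rps3a, from 3, was at 11.90 ± 0.28 and correlated with the median of the members at r = 0.888 over 15 tumours that share the arrays.

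For Rpl27a, 8 further probesets with several symbols had a median of 11.11 ± 0.15. This median correlated with the 3 single-symbol probesets (10.04 ± 0.53) at 0.210. Both sets were highest in tumor_9508, but by unlike amounts. The further probesets ran from 10.79 to 11.34 over the tumours, and the single-symbol value from 9.10 to 11.33. The SD of 0.53 given for Rpl27a is that of its single-symbol probesets. Rps2 had 2 such further probesets at 13.01 ± 0.07, which correlated with its single-symbol value at -0.0557.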
